A study of Mus musculus with 9 samples.

Results

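The enzymes that make serine and pass its carbon to folate were followed through RNA-seq counts of sorted kidney progenitors. They were chosen by symbol and number 10 of the 26858 genes in the count table: *Phgdh*, *Psat1*, *Psph*, *Shmt1*, *Shmt2*, *Mthfd1*, *Mthfd2*, *Mthfd1l*, *Mthfd2l* and *Aldh1l2*. All 10 were found under the identifier that the mouse annotation gives them, and all 10 passed the filter on low counts. The cells were eGFP+ SIX2 progenitors taken by flow sorting from kidneys at embryonic stage E18.5. Both genotypes carried the *Six2-eGFP/cre* transgene, whose *Six2* regulatory sequence directs Cre and eGFP to the cap mesenchyme, and both carried a deleted allele of *Qpc*, the gene also called *Uqcrq*, which encodes a subunit of mitochondrial complex III. Control embryos (*Six2-Qpc+/-*, 4 libraries, numbered 71, 72, 73 and 76) kept 1 intact allele, and mutant embryos (*Six2-Qpc-/-*, 5 libraries, numbered 74, 75, 77, 78 and 79) kept none in these cells. A sort on eGFP can also take up cells that have begun to differentiate or that still hold the fluorescent protein. No source states that each library came from a separate animal, so p-values measure only the spread between these libraries.

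Serine is made from the glycolytic intermediate 3-phosphoglycerate by PHGDH, PSAT1 and PSPH in turn. SHMT then splits serine into glycine and a 1-carbon unit that is carried on tetrahydrofolate, with SHMT1 acting in the cytosol and SHMT2 in mitochondria. The mitochondrial unit is oxidized by MTHFD2 or MTHFD2L and then released as formate by MTHFD1L or as CO2 by ALDH1L2, and the cytosolic protein MTHFD1 takes formate back up for purine and thymidylate synthesis. Several of these genes are known targets of ATF4, the transcription factor of the integrated stress response, which mitochondrial dysfunction can set off.

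Promoter sequences are shown for the serine synthesis gene and the mitochondrial folate gene that rose together, because shared letters in them are what a reader would look for first. RefSeq windows on GRCm38.p6, from 250 bases before to 50 bases after the transcription start, matched 9 of the 10 genes (10 windows), *Aldh1l2* being the one without a match. Capitals mark CCAAT, the box bound by NF-Y, or its reverse complement ATTGG. *Mthfd2* lies at chr6:83317555-83317854 and *Psat1* at chr19:15925010-15925309, both on the minus strand and printed 5′ to 3′.
*Mthfd2*: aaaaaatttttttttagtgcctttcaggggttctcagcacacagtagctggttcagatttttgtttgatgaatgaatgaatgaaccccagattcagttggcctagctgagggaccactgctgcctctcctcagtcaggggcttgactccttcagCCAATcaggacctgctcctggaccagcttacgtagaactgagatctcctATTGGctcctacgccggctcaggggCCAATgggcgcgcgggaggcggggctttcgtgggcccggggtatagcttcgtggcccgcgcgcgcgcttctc
*Psat1*: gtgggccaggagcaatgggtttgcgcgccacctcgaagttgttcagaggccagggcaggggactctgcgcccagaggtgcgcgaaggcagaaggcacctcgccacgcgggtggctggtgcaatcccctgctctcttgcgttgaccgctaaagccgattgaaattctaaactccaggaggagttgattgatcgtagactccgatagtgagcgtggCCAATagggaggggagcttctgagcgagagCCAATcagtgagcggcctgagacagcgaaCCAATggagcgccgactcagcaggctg
Both windows held CCAAT 3 times, as 3.37% of all 32851 mouse windows did with 3 or more copies. In *Mthfd2* the boxes began at -96, -47 and -22 from the start, and in *Psat1* at -36, -6 and 24. A further *Psat1* window, chr19:15924573-15924872, held none. In the other members with a box, boxes began at -193 and -23 in *Phgdh*, at -78 and -48 in *Psph*, at -47 in *Shmt1* and at -69 in *Mthfd1*. At least 1 copy was present in 6 of the 10 windows, 1 for each of 6 genes (*Mthfd1*, *Mthfd2*, *Phgdh*, *Psat1*, *Psph* and *Shmt1*), a group that includes both genes that rose and genes that did not, and in 37.4% of all windows. The composite ATF4 and C/EBP motif TGATGNAA, searched on both strands, was in none of the 10 windows and in 3.97% of all windows, and the MYC-type E-box CACGTG was in none of the 10 and in 7.15% of all. These searches describe letters in the 300-base windows and carry no statement on binding.

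Libraries held 21040536 to 23986458 counts, and the members rested on 50 to 28685 reads per library, so that the spread between libraries more than counting error set the precision. CPM are reads on a gene per 1000000 reads, after TMM scaling of the library. The deleted gene *Uqcrq* fell from 94.1 ± 13.3 CPM (SD, n = 4) to 21.3 ± 4.45 CPM (SD, n = 5), with every mutant library under every control library. Nephron progenitor markers (*Six2*, *Cited1*, *Eya1*, *Osr1*, *Meox1* and *Crym*) summed to 1904 to 2359 CPM in control and 1868 to 2316 CPM in mutant libraries, and none of the 6 was called. Stroma markers summed to 86.1 to 130 CPM against 187 to 584 CPM without overlap, and 5 of the 6 tested were called higher. The sixth, *Pdgfrb*, had a log2 fold change of -0.51 and was not called. Myeloid markers summed to 2.26 to 5.92 CPM against 5.54 to 46.3 CPM, with 2 of 5 called higher. Endothelium markers summed to 2.49 to 5.10 CPM against 2.81 to 7.07 CPM, with 1 of 3 tested called higher. Over all genes, 7.82% were called higher and 7.5% had every mutant library above every control library. Reads from Y-linked genes were present in control 72, control 73 and mutant 79 and absent or nearly so from the other 6, so that the embryos behind the libraries differed in sex and the genotypes were not balanced for it. In bulk samples of this kind, fewer cells of a type and less RNA per cell cannot be told apart.

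The first comparison asked which of the 10 enzymes differed between mutant and control progenitors. At an adjusted p under 0.05 (edgeR quasi-likelihood test, Benjamini-Hochberg over all 14990 genes tested), 5 of the 10 members were called higher in mutant progenitors and 0 were called lower, beside 7.82% of all genes called higher and 7.02% called lower. At an unadjusted p under 0.05, 6 were higher, the sixth being *Phgdh*, and 0 lower. Over all genes, 4709 of the 14990 tested had an unadjusted p under 0.05, in either direction. The 5 members called at the adjusted threshold were *Psat1*, *Psph*, *Shmt2*, *Mthfd2* and *Aldh1l2*. In 4 of them the lowest mutant library lay above the highest control, the exception being *Psph*. Over all genes, 7.5% had that separation and 5.65% were both separated and called higher. The median log2 fold change was 0.42 over the members and -0.01 over all genes tested. The calls for *Psat1*, *Mthfd2* and *Aldh1l2*, whose log2 fold changes were above 1, held in all 18 alternative fits, and 2.73% of all genes were called with a rise of that size. The calls for *Psph* and *Shmt2* depended on the libraries used: the count of members called higher was 3 without control 72, control 73, mutant 77, mutant 78 or mutant 79, where 3.64% to 6.13% of all genes were called higher, and 3 among the 6 libraries without Y-linked reads (control 71 and 76 against mutant 74, 75, 77 and 78), where 0.336% of all genes were called higher.

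**Figure D1:**
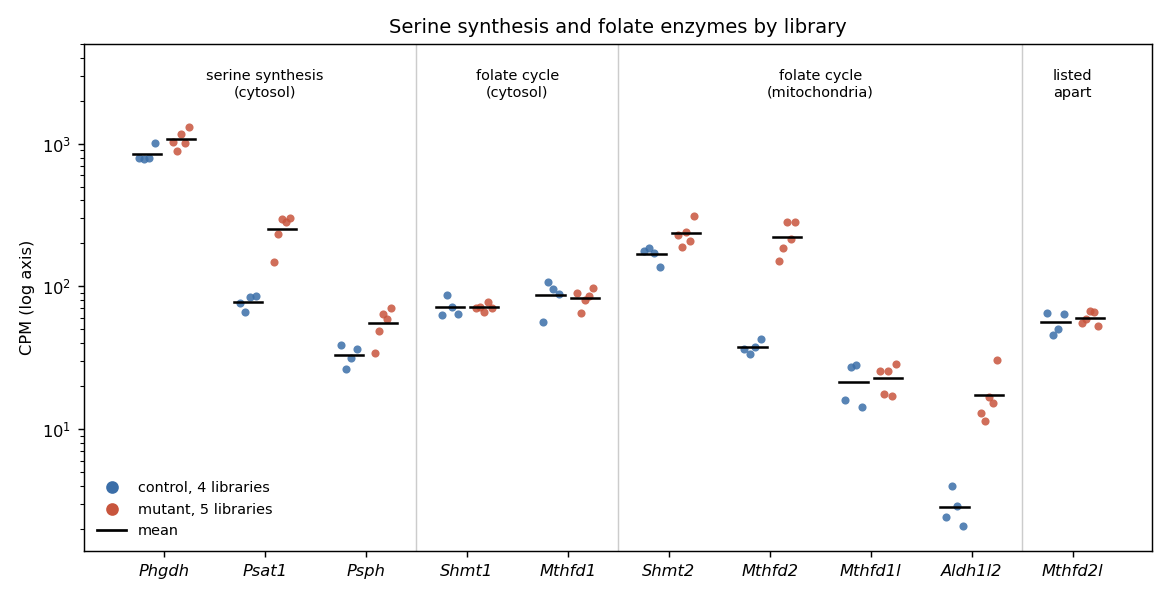
CPM on a log axis of the 10 enzymes in each of 4 control (blue) and 5 mutant (red) libraries, with black bars for the mean of each genotype. *Psat1*, *Mthfd2* and *Aldh1l2* show red points well clear of the blue ones, whereas *Shmt1*, *Mthfd1*, *Mthfd1l* and *Mthfd2l* show mixed points.

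Of the serine synthesis enzymes, *Psat1*, the aminotransferase of the second step, moved most. It measured 76.6, 65.7, 84.1 and 85.8 CPM in control 71, 72, 73 and 76, and 149, 234, 295, 284 and 300 CPM in mutant 74, 75, 77, 78 and 79. The genotypes stood apart, and mutant 74 was the lowest mutant library. The fitted rise was 3.23-fold (95% interval 2.44 to 4.29; log2 fold change 1.69, SE 0.19, adjusted p = 0.000364). *Phgdh*, which encodes the dehydrogenase that commits 3-phosphoglycerate to the pathway, was by far the most abundant member and differed much less. Its levels were 791, 784, 795 and 1004 CPM in control libraries and 1035, 889, 1173, 1004 and 1301 CPM in mutant libraries. The genotypes overlapped at control 76, which stood well above the other controls and level with mutant 78. The log2 fold change of 0.36 (SE 0.13, 95% interval 0.07 to 0.65) had an adjusted p of 0.0860 and was not called. It was called by DESeq2 (adjusted p = 0.0451, with 11.6% of all genes called higher), by limma-voom (adjusted p = 0.0153, with 16% of all genes called higher) and when control 76 was left out, and its adjusted p ranged up to 0.625 over the alternatives.

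*Psph*, the phosphatase of the last step, measured 38.6, 26.3, 31.5 and 36.2 CPM in control libraries and 34.4, 49.1, 64.2, 59.1 and 70.5 CPM in mutant libraries. In mutant 74 the level lay inside the control range, while the other 4 mutant libraries were above every control. The rise was 1.67-fold (log2 fold change 0.74, SE 0.20, adjusted p = 0.0241) and lost its call with 1 surrogate variable, without control 72, control 73, mutant 77, mutant 78 or mutant 79, and among libraries without Y-linked reads, with adjusted p from 0.00184 to 0.371 over the alternatives. Exons of *Psph* share 452 bases with *Cct6a* on the opposite strand, and these libraries did not keep the strand. *Cct6a* had 11288 to 13863 counts per library and was not called (log2 fold change 0.12, adjusted p = 0.472).

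In mitochondria, *Mthfd2*, the dehydrogenase and cyclohydrolase best known from embryonic and transformed cells, showed the smallest adjusted p of the members. Control libraries 71, 72, 73 and 76 held 36.6, 33.8, 37.3 and 42.8 CPM, and mutant libraries 74, 75, 77, 78 and 79 held 150, 186, 285, 214 and 282 CPM. The lowest mutant library was still several times above the highest control. The fitted rise was 5.93-fold (95% interval 4.46 to 7.89; log2 fold change 2.57, SE 0.19, adjusted p = 2.09e-05). Across the alternatives its log2 fold change stayed between 2.39 and 2.68.

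*Aldh1l2*, the mitochondrial formyltetrahydrofolate dehydrogenase that releases CO2 and makes NADPH, rose from the lowest level of the set. It measured 2.43, 3.97, 2.91 and 2.11 CPM in control libraries (50 to 102 reads) and 13.0, 11.5, 16.7, 15.4 and 30.3 CPM in mutant libraries (259 to 667 reads). No mutant library came near the control range, and mutant 79 stood above the other mutants. The rise was 6.06-fold (95% interval 3.80 to 9.66; log2 fold change 2.60, SE 0.31, adjusted p = 0.000523), and without mutant 79 the log2 fold change was 2.30 and still called. Exons of *Aldh1l2* share 1056 bases with *D10Wsu102e* on the opposite strand, a gene with 803 to 1189 counts in control and 1081 to 1383 counts in mutant libraries that was itself called higher (log2 fold change 0.53, adjusted p = 0.0317). How many of the shared-exon reads belong to either gene cannot be told apart.

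*Shmt2*, the mitochondrial serine hydroxymethyltransferase and the most abundant mitochondrial member, rose less. Its levels were 176, 186, 171 and 136 CPM in control libraries and 228, 188, 240, 210 and 311 CPM in mutant libraries. The genotypes did not overlap, but mutant 75 lay just above control 72. The rise was 1.41-fold (log2 fold change 0.49, SE 0.15, 95% interval 0.17 to 0.81, adjusted p = 0.0426). Its call was lost with upper-quartile normalization (adjusted p = 0.0526), on leaving out any library other than mutant 74 or mutant 75, and among libraries without Y-linked reads, with adjusted p between 0.0105 and 0.204.

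*Mthfd1l*, the mitochondrial formyltetrahydrofolate synthetase that yields formate, was the mitochondrial member without a call. It measured 16.1, 27.1, 28.1 and 14.3 CPM in control libraries and 25.6, 17.6, 25.4, 16.9 and 28.6 CPM in mutant libraries. Both genotypes spanned nearly the same range. The log2 fold change was 0.09 (SE 0.23, 95% interval -0.41 to 0.59, adjusted p = 0.827), which leaves room for a rise of up to 1.51-fold or a fall to 0.752 of control. With the Y-linked reads as a covariate the log2 fold change was 0.33, and among libraries without such reads it was 0.48 (adjusted p = 0.355).

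*Mthfd2l*, a second mitochondrial dehydrogenase of the same step as *Mthfd2* that was kept apart from both compartments in the contrast below, measured 65.0, 46.0, 50.1 and 64.2 CPM in control and 55.3, 59.1, 66.7, 66.3 and 52.7 CPM in mutant libraries. The levels were mixed between genotypes. Its log2 fold change of 0.09 (95% interval -0.20 to 0.39, adjusted p = 0.689) lay far below that of *Mthfd2*, and the interval of one did not reach that of the other.

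Neither cytosolic folate enzyme was called. *Shmt1*, which interconverts serine and glycine in the cytosol, measured 63.1, 87.6, 71.2 and 63.7 CPM in control and 70.6, 71.5, 66.1, 77.8 and 71.1 CPM in mutant libraries. The means were 71.4 CPM in both genotypes, and the 95% interval of the log2 fold change ran from -0.26 to 0.26 (adjusted p = 0.999). Its exons share 184 bases with *Smcr8* on the opposite strand, which had 171 to 250 counts in control and 270 to 340 counts in mutant libraries and was itself called higher (log2 fold change 0.69, adjusted p = 0.0250). *Mthfd1*, the trifunctional enzyme that charges folate with formate, measured 56.0, 107, 95.5 and 88.6 CPM in control and 89.3, 64.6, 80.4, 85.1 and 96.8 CPM in mutant libraries. The control libraries spread more widely than the mutant ones and enclosed all of them, and the log2 fold change was -0.06 (95% interval -0.44 to 0.31, adjusted p = 0.846). In both genes the intervals exclude a rise of the size seen in *Mthfd2*, *Psat1* or *Aldh1l2*.

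**Figure D2:**
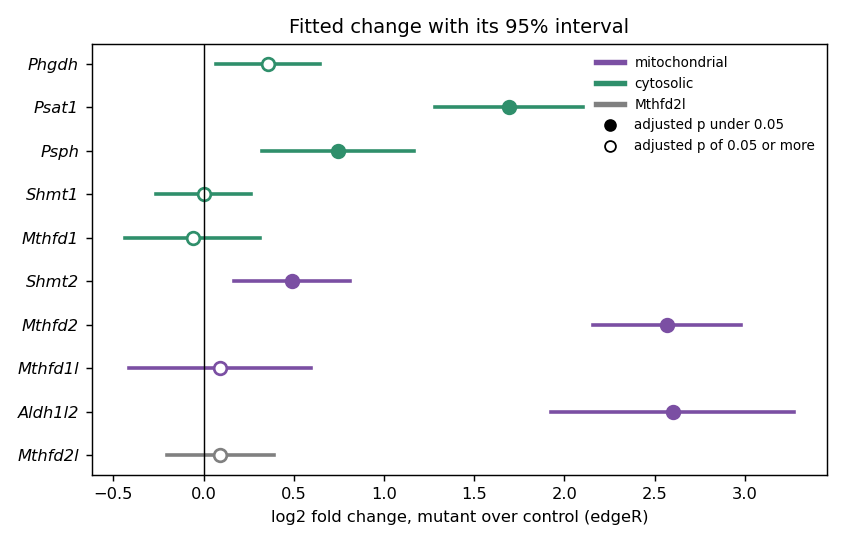
Fitted log2 fold change of each enzyme, mutant over control (edgeR), as a point with its 95% interval, in purple for mitochondrial and green for cytosolic members and grey for *Mthfd2l*. Filled points are the 5 members with an adjusted p under 0.05, and the intervals of *Mthfd2*, *Aldh1l2* and *Psat1* all lie above 1 on the log2 scale.

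The second comparison set mitochondrial against cytosolic enzymes. Of the 4 mitochondrial members 3 were called higher, and of the 5 cytosolic members 2 were, both of them serine synthesis enzymes, beside 7.82% of all genes called higher. The mean fitted log2 fold change was 1.44 over mitochondrial and 0.55 over cytosolic members, a difference of 0.89. Within the cytosolic side the 3 serine synthesis enzymes had a mean of 0.93, and the folate enzymes *Shmt1* and *Mthfd1* a mean of -0.03. Against the folate enzymes alone the difference was 1.47, and with *Mthfd2l* counted as mitochondrial it was 0.62. Computed inside each library, the mean log2 CPM of mitochondrial minus cytosolic members was -2.10, -1.87, -1.997 and -2.45 in control 71, 72, 73 and 76. The same value was -1.13, -1.40, -1.16, -1.47 and -0.95 in mutant 74, 75, 77, 78 and 79. All mutant values were above all control values, and the members carrying this shift were *Mthfd2* and *Aldh1l2*, with *Shmt2* behind and *Mthfd1l* near 0.

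Ratios of counts inside a library do not depend on library size and compare the enzymes of one step directly. They were tested by 2-sided exact permutation over the 126 splits of 9 libraries, whose smallest possible p is 0.00794, with Benjamini-Hochberg adjustment over 4 ratios. *Mthfd2* to *Mthfd1* was 0.655, 0.315, 0.391 and 0.483 in control libraries and 1.68, 2.87, 3.54, 2.52 and 2.91 in mutant libraries. Thus *Mthfd2* had fewer reads than *Mthfd1* in every control library and more in every mutant library, a 5.92-fold shift (exact p = 0.00794, the smallest possible, adjusted 0.0317). These reads are not divided by transcript length, which is 2085 bases for *Mthfd2* and 3324 for *Mthfd1*. Per kilobase the control ranges overlapped, with 16.2 to 20.5 CPM per kb for *Mthfd2* and 16.8 to 32.3 for *Mthfd1*. *Shmt2* to *Shmt1* was 2.79, 2.13, 2.40 and 2.14 in control and 3.23, 2.63, 3.63, 2.69 and 4.37 in mutant libraries. The genotypes overlapped at control 71, and the 1.38-fold shift did not pass after adjustment (exact p = 0.0476, adjusted 0.0741). *Mthfd1l* to *Mthfd1* ran from 0.162 to 0.295 in control and from 0.199 to 0.315 in mutant libraries (exact p = 0.5), which gave no shift between the formate-making and formate-using enzyme larger than the spread. *Aldh1l2* to its cytosolic counterpart *Aldh1l1* ran from 8.85 to 68.3 in control and from 35.8 to 208 in mutant libraries (exact p = 0.0556, adjusted 0.0741), but *Aldh1l1* had only 1 to 8 reads per library, so that this ratio is dominated by counting error in the denominator.

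**Figure D3:**
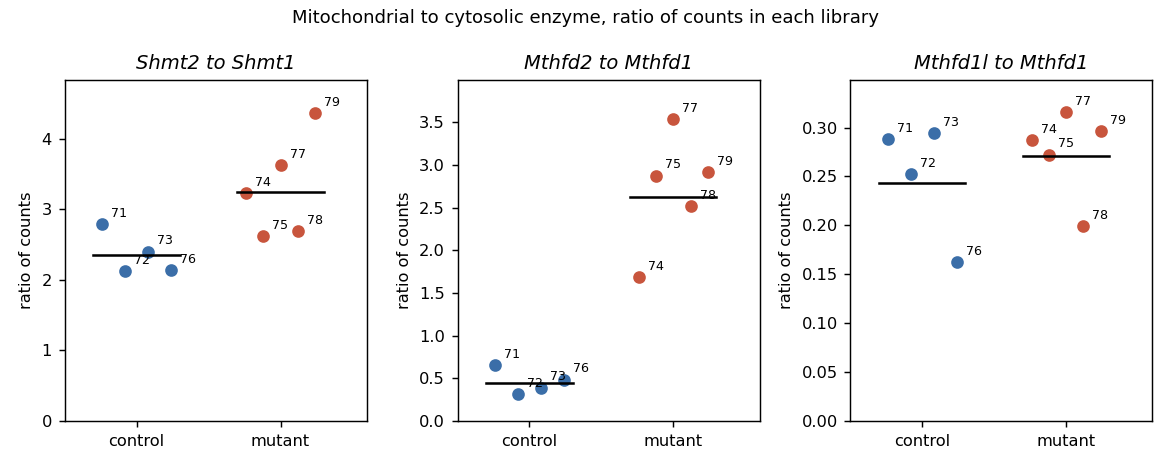
Ratio of counts of the mitochondrial to the cytosolic enzyme in each library, with library numbers beside the points and bars at the geometric mean of each genotype. *Mthfd2* to *Mthfd1* rises from 0.315 to 0.655 in control to 1.68 to 3.54 in mutant libraries, whereas the points for *Shmt2* to *Shmt1* and *Mthfd1l* to *Mthfd1* overlap between genotypes.

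The order of levels among the enzymes also shifted. Per kilobase of transcript, *Phgdh* came first in control libraries with a mean level of 446 CPM per kb, followed without overlap by *Shmt2* with 72.6 and *Psat1* with 29.8. *Psat1* and the genes ranked after it, *Mthfd1* with 26.1, *Mthfd2l* with 25.2 and *Shmt1* with 25.0 CPM per kb, overlapped from each to the next. *Mthfd2* followed with 18.0, *Psph* with 11.5, *Mthfd1l* with 5.81 and *Aldh1l2* with 0.474 CPM per kb, and no 2 neighbours in this lower run overlapped. In mutant libraries *Mthfd2* stood second with 107 ± 28.4 CPM per kb (SD, n = 5), close to *Shmt2* with 102 ± 20.2 and *Psat1* with 96.4 ± 24.2, differences well within their SD. *Aldh1l2* remained the lowest in both genotypes.

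The mutant libraries differed among themselves in the size of the rise. Among the 5 members called higher, mutant 74 was the lowest mutant library for *Psat1*, *Psph* and *Mthfd2*, and mutant 75 for *Shmt2* and *Aldh1l2*, whereas mutant 79 was the highest for *Psat1*, *Psph*, *Shmt2* and *Aldh1l2*. Stroma markers summed to 360 CPM in mutant 74, 584 CPM in mutant 75 and 280 CPM in mutant 79, and to 187 CPM in mutant 77, the highest library for *Mthfd2*. Myeloid markers summed to 5.54 CPM in mutant 74, inside the control range, and to 15.6 to 46.3 CPM in the other 4 mutant libraries. The part of stroma or myeloid cells in the differences was not tested.

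Other genes of the pathway did not move as a block. Of 43 genes for folate uptake, the folate cycle, glycine cleavage, serine and glycine transport and use, and the methionine cycle with transsulfuration, 36 passed the filter. Of these, 3 were called higher and 3 lower, with a median log2 fold change of -0.07, beside the 14.8% of all genes called in either direction. The genes called higher were *Slc1a4* and *Slc6a9*, which carry serine and glycine across the plasma membrane, and *Cth*, the cystathionine lyase that makes cysteine downstream of serine. The genes called lower were *Slc46a1*, the proton-coupled folate transporter, *Sdsl*, a serine dehydratase-like enzyme, and *Tyms*, the thymidylate synthase.

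*Slc1a4*, the neutral amino acid transporter ASCT1, measured 10.7, 11.8, 11.3 and 8.35 CPM in control and 34.7, 28.7, 36.8, 33.7 and 83.8 CPM in mutant libraries. No mutant library reached down to the controls, mutant 79 stood far above the rest, and the log2 fold change was 2.05 (SE 0.29, adjusted p = 0.00121), or 1.67 without mutant 79 and still called. Its promoter window is shown because it held the composite ATF4 and C/EBP motif that none of the 10 member windows held, and it was chosen after that match was seen. The window is chr11:20332664-20332963 (GRCm38.p6, minus strand), and capitals mark the reverse complement of TGATGNAA, which begins at -4 and runs across the transcription start.
*Slc1a4*: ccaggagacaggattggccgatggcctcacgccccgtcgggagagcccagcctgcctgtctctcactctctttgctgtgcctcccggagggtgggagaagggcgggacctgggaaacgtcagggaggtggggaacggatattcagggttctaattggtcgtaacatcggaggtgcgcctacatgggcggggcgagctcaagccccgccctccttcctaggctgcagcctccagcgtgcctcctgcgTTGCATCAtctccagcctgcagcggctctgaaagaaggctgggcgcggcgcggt
*Cth* rose from 31.1 ± 3.56 CPM (SD, n = 4) to 71.4 ± 21.1 CPM (SD, n = 5) without overlap (log2 fold change 1.20, adjusted p = 0.00359), and lost its call among libraries without Y-linked reads (log2 fold change 1.10, adjusted p = 0.113). *Slc6a9*, the glycine transporter GLYT1, measured 6.61 ± 2.39 against 13.7 ± 6.35 CPM with overlap (log2 fold change 1.05, adjusted p = 0.0476), and lost its call without control 71, control 73, control 76, mutant 77, mutant 78 or mutant 79 and among libraries without Y-linked reads (adjusted p = 0.113).

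In the folate uptake list, 0 of 6 genes tested were called higher and 1 lower. Beside each list count in this paragraph, 7.82% of all genes were called higher and 7.02% lower. *Slc46a1* fell from 33.6 ± 3.74 to 16.6 ± 1.96 CPM without overlap (log2 fold change -1.02, SE 0.14, adjusted p = 0.00116), a call lost among libraries without Y-linked reads (adjusted p = 0.0527), while the mitochondrial folate carrier *Slc25a32* (0.30, adjusted p = 0.353) and the polyglutamate synthase *Fpgs* (-0.03, adjusted p = 0.881) were not called. In the folate cycle list, 1 of 7 was called lower: *Tyms* went from 167 ± 15.4 to 128 ± 17.1 CPM (log2 fold change -0.39, adjusted p = 0.0497), a call lost on leaving out any 1 library and among libraries without Y-linked reads. *Tyms* is also a marker of dividing cells, and the summed proliferation markers, *Tyms* included, ran from 1677 to 1812 CPM in control and from 1369 to 1742 CPM in mutant libraries. *Mthfs* (-0.68, adjusted p = 0.0717) was not called. In the serine and glycine list, 2 of 9 were called higher and 1 lower, the latter being *Sdsl* with 21.8 ± 0.276 against 13.1 ± 3.14 CPM (log2 fold change -0.74, adjusted p = 0.0179), a call lost without control 73 (adjusted p = 0.0540) and among libraries without Y-linked reads (adjusted p = 0.141). None of the 4 glycine cleavage genes was called at an adjusted p under 0.05 by edgeR, and 0 had an unadjusted p under 0.05. Over all genes, 4709 of the 14990 tested had an unadjusted p under 0.05, in either direction. The 3 glycine cleavage genes with the smallest p were *Dld* (0.20, adjusted p = 0.233), *Amt* (-0.60, adjusted p = 0.253) and *Gldc* (-0.33, adjusted p = 0.358). In the methionine list, *Cth* was the 1 call among 10 genes tested, and *Mat2b* (0.34, adjusted p = 0.118) and *Ahcy* (-0.18, adjusted p = 0.241) followed.

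**Figure D4:**
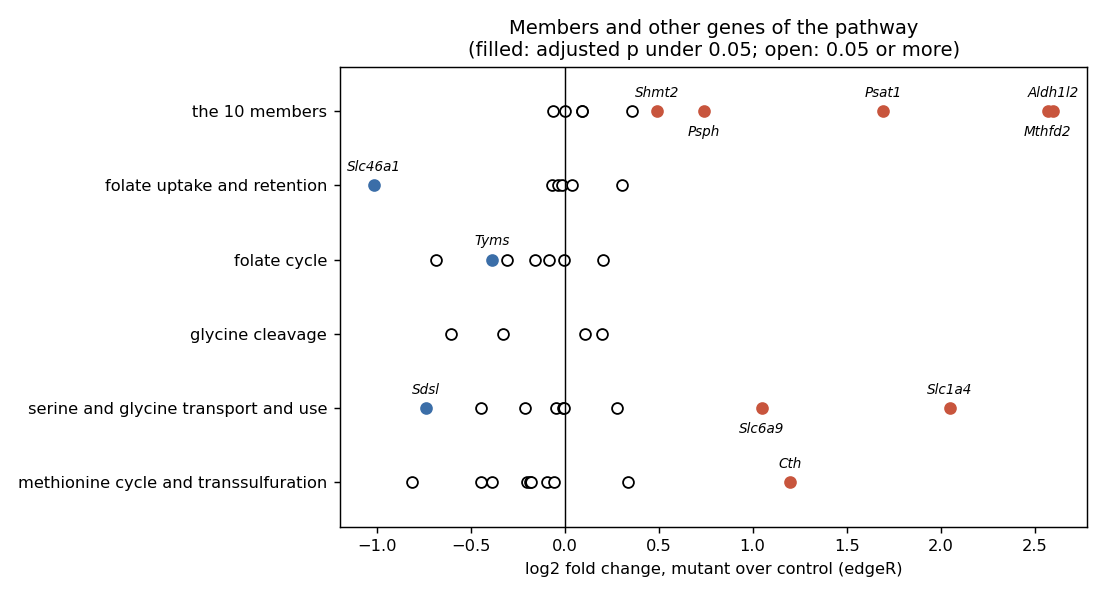
Fitted log2 fold change, mutant over control (edgeR), of the 10 enzymes and of the 36 tested genes in 5 neighbouring lists, 1 point per gene. Filled and named points have an adjusted p under 0.05: 5 members stand to the right, and the other lists hold 3 filled points on the right and 3 on the left.

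*Atf4* itself measured 204, 168, 189 and 207 CPM in control and 295, 461, 580, 482 and 448 CPM in mutant libraries, and was called higher (log2 fold change 1.24, SE 0.17, adjusted p = 0.000857). The call held in 17 of the 18 alternative fits. The exception was the fit among libraries without Y-linked reads, which has fewer samples (log2 fold change 1.14, adjusted p = 0.0626). The genotypes did not overlap, and mutant 74 was again the lowest mutant library, as for *Psat1*, *Psph* and *Mthfd2*. Among 9349 genes outside the set with a mean of at least 10 CPM, the profile of log2 CPM most like that of *Mthfd2* over the 9 libraries belonged to *Asns*, the asparagine synthetase (Pearson r = 0.994). *Sars* (r = 0.989) and *Nars* (r = 0.986), which encode cytosolic aminoacyl-tRNA synthetases, *Ank2* (r = 0.986), an ankyrin, and *Nupr1* (r = 0.986), a stress-induced nuclear protein, came next. A correlation over both genotypes mostly restates that a gene differed between them. For the deviations from the genotype means, r was 0.911 for *Asns*, 0.867 for *Sars*, 0.892 for *Ank2*, 0.845 for *Nars* and 0.739 for *Nupr1*. The r that ranked these genes already holds those deviations, so high values were partly set by the choice and are no separate support. These are descriptions over 9 libraries that share depth and preparation, and no p is attached to them.

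Copies of the members elsewhere in the genome took few reads. *Phgdh* has 24 other annotated genes with near-identical transcript sequence (at least 85% identity over 150 bases or more), of which 7 were in the table with at most 5 counts in any library. The single copy of *Psat1* had at most 2 counts and that of *Shmt2* at most 3. Reads that the counting may have dropped or given to the parent gene cannot be told apart from these counts.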

How the data were processed

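RNA was taken from 4 control and 5 mutant preparations of sorted SIX2 progenitors, with 1 library each. Per the labels, cDNA was amplified from low input, poly(A) selected and sequenced without strand information, so genes on opposite strands share reads. The submitters' processing notes name STAR, DESeq2 and mm10 without versions, and the counter is not given in the sources used here. The authors deposited raw read counts per gene, which were used here. They also deposited FPKM values computed from those counts and the gene length, a mean normalized signal per genotype, and a log2 fold change with its p-value and adjusted p-value for their own comparison, and none of these was used. The deposited gene length, a value of other kind, served for levels per kb.

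Counts were fitted in R 4.3.3 with edgeR 4.0.16 (filterByExpr, TMM, robust quasi-likelihood test, Benjamini-Hochberg adjustment over 14990 genes, threshold 0.05). The script was tested on simulated data first. Each SE was derived from the fold change and the F statistic of its test. Compartment means carry no p, and ratios (0.5 counts added) were tested by exact permutation. Library totals were 21040536 to 23986458 counts, and no pair of libraries of the same genotype was as alike as sampling noise allows. Alternatives were DESeq2 1.42.0, limma-voom (limma 3.58.1), RLE and upper-quartile normalization, other filters, 1 surrogate variable (sva 3.50.0), a Y-linked covariate and each library left out in turn. The fit among libraries without Y-linked reads was added after the data were seen. The genes named were the 10 members, the 3 genes of smallest p in each pathway list and those called, *Uqcrq*, *Atf4*, the 5 genes most like *Mthfd2* and genes overlapping a member. The values of 1 gene that this rule names are not reported here. Members and lists were chosen with earlier results of these data known. Copies were found with BLAST+ 2.17.0, and plots were drawn with Python 3.11.15 and matplotlib 3.10.9.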

Additional observations from a re-analysis of the deposited data

Results flagged for a closer look

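Single libraries that stood apart from the others of their genotype, by the gap to the nearest library over the whole range (Dixon's 95% limit), were found in 5 of the 62 gene and genotype groups tested, where chance gives about 3.1 (1 in 20). Among the members these were *Phgdh*, whose control 76 was the highest control at 1004 CPM (next 795 CPM), and *Aldh1l2*, whose mutant 79 was the highest mutant at 30.3 CPM (next 16.7 CPM). In the neighbouring lists they were *Slc1a4* with mutant 79 highest at 83.8 CPM (next 36.8 CPM), *Sdsl* with control 76 lowest at 21.4 CPM (next 21.9 CPM, in a group with hardly any spread), and *Mthfs* with control 71 highest at 9.03 CPM (next 6.29 CPM). Mutant 79 was also the one mutant library with Y-linked reads, and the part of sex in its high *Aldh1l2* and *Slc1a4* levels was not tested.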

How the results depend on the processing

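*Psat1*, *Mthfd2* and *Aldh1l2* kept their direction and call in every alternative fit, and 0 members were called lower in any. Members called higher numbered 3 at a log2 fold change of at least 1 and 3 among libraries without Y-linked reads, and 3 to 5 with each library left out in turn. Other one-carbon genes called higher numbered 5 with limma-voom, 1 among libraries without Y-linked reads and 2 to 3 with libraries left out. The shares of all genes called higher in those fits were 16%, 0.336% and 3.64% to 10.8%. Other one-carbon genes called lower numbered 5 with DESeq2, 6 with limma-voom and 5 with 1 surrogate variable. They numbered 0 among libraries without Y-linked reads, 1 at a log2 fold change of at least 1, and 1 to 3 with libraries left out (1 without control 73). Over all genes, 2225 were called in either direction in the main fit, 3184 with DESeq2, 4858 with limma-voom and 2226 with 1 surrogate variable. The same total was 799 at a log2 fold change of at least 1, 90 among libraries without Y-linked reads and 1046 to 3136 with libraries left out. The 6 libraries without Y-linked reads leave fewer samples in the fit. *Psph*, *Shmt2*, *Cth*, *Slc6a9*, *Slc46a1*, *Sdsl* and *Tyms* lost their calls there, with log2 fold changes of 0.46, 0.47, 1.10, 1.18, -1.02, -0.83 and -0.47. In the edgeR fit of all 9 libraries with the Y-linked covariate these genes kept their calls (adjusted p = 0.0341, 0.0132, 0.00625, 0.00566, 0.00246, 0.0300 and 0.0428, in the same order). That fit called 1816 of all genes in either direction. The mitochondrial minus cytosolic difference was 0.62 with *Mthfd2l* counted as mitochondrial, 1.47 for folate enzymes only and 1.17 as a median, and 0.79 to 0.97 with libraries left out. The log2 shift of *Shmt2* to *Shmt1* was 0.36 to 0.55 with libraries left out, with a p of 0.05 or more in 8 of the 9 cases. That of *Aldh1l2* to *Aldh1l1* was 2.15 with 10 counts added (exact p = 0.00794) and 1.71 to 2.69 with libraries left out. The 10 added counts outweigh the 1 to 8 reads of *Aldh1l1*, so that p mostly restates the rise of *Aldh1l2* and does not test the ratio. Causes of these shifts were not tested.

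No paired analysis was possible because control and mutant libraries share no replicate number. Depth limits *Aldh1l1* and the 7 listed genes that did not pass the filter (*Folr1*, *Aldh1l1*, *Ftcd*, *Sds*, *Tdh*, *Bhmt* and *Bhmt2*).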
